A study of Rattus norvegicus with 2 samples.

Results

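Rab GTPases are the largest branch of the Ras superfamily of small G proteins. The family was followed in sympathetic neurons of the rat, which release noradrenaline onto the heart and other organs, grown with or without myocytes. Members were all genes whose symbol in the platform annotation is Rab followed by a number and an optional letter, measured by a probe set that carries this 1 symbol, so that proteins that only bind a Rab were left out. This gave 44 genes of 10411 genes in all, read by 60 probe sets, and each gene was represented by its brightest probe set. All 44 matched the RefSeq gene table under the same symbol, and the other 14 Rab symbols of that table, among them Rab21, Rab30 and Rab33a, were not analysed here.

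The 2 groups were sympathetic neurons cultured alone and sympathetic neurons taken from co-culture with myocytes, a target of these neurons, each measured on 1 Affymetrix Rat Expression Set 230A array. No source used here gives the strain, age or time in culture. The less adherent neurons were washed off dishes that held myocytes or other flat cells with EDTA, and the protocol text is the same for both samples. Title and source name of the second sample name the myocyte target, but its description speaks of neurons grown alone and conflicts with them. Samples were grouped by title and source name. The series asks which transcripts accompany the halt in growth that contact with a target brings about in these neurons. With 1 array per group there is no replicate and no test was possible. All differences are between a pair of arrays and not between replicated conditions.

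A Rab protein is a membrane switch. Bound to GTP it sits on 1 kind of membrane through a lipid tail and recruits effectors such as tethers and motors, and bound to GDP it is taken off the membrane by a GDP dissociation inhibitor (GDI). Exchange factors load GTP and GTPase activating proteins end the signal. In neurons the Rab3 proteins ride on synaptic and dense core vesicles, and Rab3a is the main form in brain, whereas Rab1, Rab5, Rab7 and Rab11 serve the early secretory pathway, endosomes, lysosomes and recycling in all cells.

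The Rab family split into a pair of members that differed widely between the arrays and a large remainder that differed little. Rab3a, the vesicle GTPase of regulated release, was 3.61-fold lower in neurons from co-culture, and Rab20, a GTPase of endosomes and phagosomes, was 2.26-fold higher. Of the 37 members that passed a signal filter, 34 differed by less than 1.5-fold, and 27 of these by less than 1.2-fold (73.0%, against 70.7% of all genes). The filter kept a gene whose intensity reached the array median (186 alone, 175 after co-culture) on at least 1 array. The number past 2-fold was 2 of 37, beside a background of 0.942% over all 6368 genes above the filter (0.628% lower and 0.314% higher). Both members, Rab3a and Rab20, reached the array median only on the array where they are high. With the median required on both arrays, 0 of 34 members were past 2-fold, and the background under that filter is not given here. At 1.5-fold the number was 3 of 37, the third being Rab11b, beside 5.23% (3.3% lower and 1.93% higher). Rab20 stayed under 2-fold with a pseudocount in place of the floor (log2 ratio 0.94, against 1.18), which left 1 member past 2-fold. Rab11b fell short of 1.5-fold under median scaling (log2 ratio -0.55, against -0.63) and with the mean over its probe sets (-0.48), and that mean brought Rab15 (-0.65) and Rab31 (-0.70) past it, 4 members in all.

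Cell type markers also differed between the arrays. Over all genes above the filter, 52.7% were lower as deposited, and 38.7% to 67.4% under the 5 other scalings. All 7 measured markers of sympathetic neurons were lower, under every scaling tried, and their summed intensity was 24924 alone and 19781 after co-culture (0.794-fold). All 8 fibroblast markers were higher, from 37196 to 41949 in sum (1.13-fold), although Vim and Col1a2 were not higher after quantile normalization, lowess correction or scaling to the spiked controls, nor Col1a1 after the first pair of these. These 3 genes are named after their values were seen. The neuron and fibroblast lists lay wholly above the filter. Of 6 glial markers 4 were higher (4832 and 4926 in sum), or 3 under scaling to the spiked controls, and of 6 macrophage markers 5 were lower (1227 and 1075). Of 8 cardiac markers 6 were higher, from 793 to 1151, but 6 of the 8 were below the filter, and all 3 endothelial markers were below it (125 and 107). No marker was listed at 0. In such bulk RNA, fewer cells of a type and less RNA per cell cannot be told apart. The part of these markers in the values of Rab3a, Rab20 and the other Rab genes was not tested.

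The promoter sequences of the pair of members past 2-fold are shown because these genes lay farthest apart in the family. Each is the stretch of 250 bases that ends at the base before the RefSeq start on the GRCr8 assembly, read 5′ to 3′ on the gene's own strand. Capitals mark the GC box GGGCGG on either strand.
Rab3a, chr16:18722274-18722523, minus strand: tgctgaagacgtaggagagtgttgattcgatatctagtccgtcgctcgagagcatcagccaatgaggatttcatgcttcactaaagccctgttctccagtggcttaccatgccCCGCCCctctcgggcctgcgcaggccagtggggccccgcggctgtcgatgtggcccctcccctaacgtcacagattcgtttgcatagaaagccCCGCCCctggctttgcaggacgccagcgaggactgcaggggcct
Rab20, chr16:84721177-84721426, plus strand: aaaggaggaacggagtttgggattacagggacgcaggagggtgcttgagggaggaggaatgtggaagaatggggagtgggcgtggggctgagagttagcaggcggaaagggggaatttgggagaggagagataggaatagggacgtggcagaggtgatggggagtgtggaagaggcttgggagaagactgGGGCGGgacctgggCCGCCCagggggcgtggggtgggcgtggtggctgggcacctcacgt
Both windows held 2 GC boxes and neither held the TATA box TATAAA, the cAMP response element TGACGTCA or the E box CACGTG. GC content was 60.4% for Rab3a and 62.4% for Rab20. These features were common in the family: of the 36 members with a window in the RefSeq promoter table, 30 held GGGCGG (83.3%, against 38.9% of 21842 windows of protein-coding genes) and 0 held TATAAA (against 12.1%). The palindromes TGACGTCA and CACGTG were found in 1 and 2 of the 36 (2.78% and 5.56%, against 1.89% and 6.16%). All searches covered both strands. The letters CG occurred a median of 17 times per window for the Rab genes, against 8 over all windows. The motif shares among the genes measured here were not computed. A match describes the letters of the window and not a bound site.

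**Figure D1:**
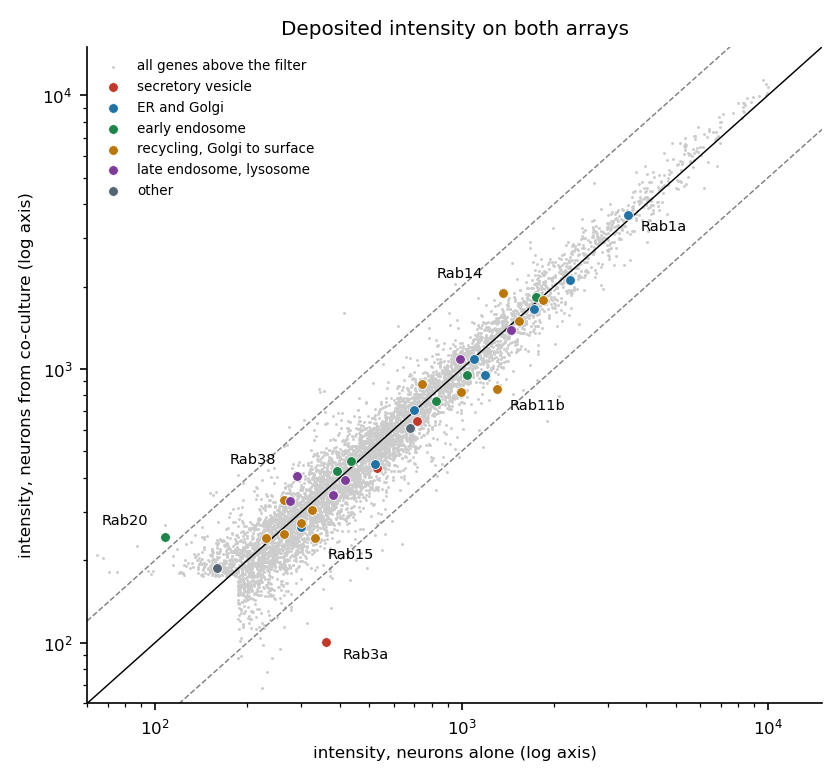
Deposited intensity of each gene that passed the filter, for neurons alone (x axis) and neurons after co-culture (y axis), both on log axes, with Rab genes coloured by trafficking route and all other genes in grey. The solid line marks equal intensity and the dashed lines 2-fold. Rab3a lies under the lower dashed line and Rab20 above the upper one, and the remaining Rab genes lie between the dashed lines.

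Among the GTPases of secretory vesicles, Rab3a stood apart from its relatives. Its probe set had an intensity of 361 in neurons alone and 100.2 after co-culture, a log2 ratio of -1.85. This was the second lowest ratio among the 6368 genes above the filter. It was 5.51 times the SD of a single probe set's ratio in the dimmest of 4 brightness groups (0.34). This SD is 1 value for the whole group, was estimated from genes with several probe sets and is not a replicate error. Rab3a has no other probe set here, and since it passed the filter on the array of neurons alone and not on the other, it could only enter with a high value on the first array.

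The other Rab3 genes encode closely related vesicle GTPases that can stand in for Rab3a in part. Rab3b had an intensity of 713 in neurons alone and 647 after co-culture, 1.10-fold lower. Rab3d, also known from granules of exocrine and mast cells, had 530.2 and 434, 1.22-fold lower. All 3 secretory members above the filter were therefore lower, under each of the 5 other scalings too, beside 52.7% of all genes as deposited. Of these, Rab3a entered only through the array of neurons alone. Rab3b (log2 ratio -0.14) and Rab3d (-0.29) lay within the spread of a single probe set (SD 0.29). Rab3c, below the filter with 159 and 134, was at -0.24. The log2 ratio of Rab3a was lower than that of Rab3b by 1.71 (SD of the difference 0.44) and lower than that of Rab3d by 1.56 (SD 0.44).

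The remaining secretory GTPases were dim on both arrays. Rab27a and Rab27b, which dock granules and lysosome-related organelles, had 60.8 and 54.8 and, for the second gene, 68.0 and 65.5. Rab26, a synaptic vesicle GTPase linked to autophagy, had 81.1 and 83.7. None of these values reached the array medians, so the arrays give little information on these genes. The median log2 ratio of the 3 secretory members above the filter was -0.29. Its difference from the median of the other 34 members was -0.24, or -0.16 without Rab3a. It was -0.10 over all 7 secretory members, without a filter.

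**Figure D2:**
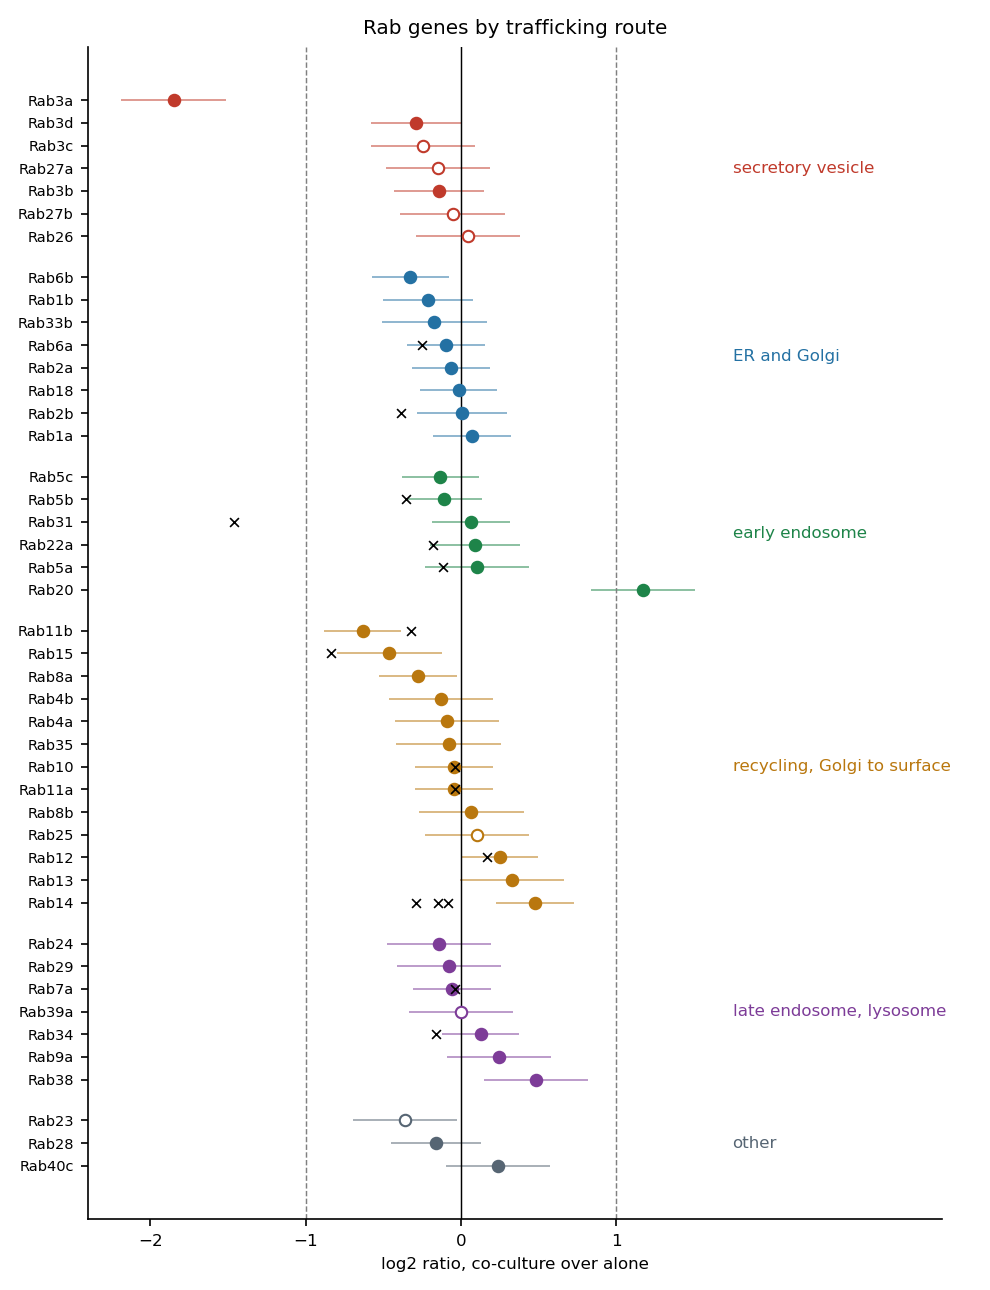
Log2 ratio, co-culture over alone (x axis), for the 44 Rab genes, grouped by route. Circles give the brightest probe set, filled if above the signal filter, and bars 1 SD of a single probe set in its brightness group. Crosses give the other probe sets of a gene, and dashed lines 2-fold. Rab3a at -1.85 and Rab20 at 1.18 lie outside the dashed lines, as does the dimmer probe set of Rab31 at -1.46.

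GTPases of the endoplasmic reticulum (ER) and Golgi were nearly level between the arrays. All 8 passed the filter, and their log2 ratios ran from -0.32 to 0.07 with a median of -0.08, or 0.01 under median scaling. Rab1a, which carries cargo from the ER to the Golgi, had intensities of 3485 and 3659, and its close relative Rab1b had 521 and 449. Rab2a, which acts between these compartments, had 1728 and 1651, and Rab18, a GTPase of the ER and lipid droplets, had 1096 and 1086. Each of these 4 genes differed by less than 1.2-fold.

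By brightest probe sets, the neuronal form of the Golgi GTPase Rab6 gave the lowest ratio of this group. Rab6b, abundant in brain, had 1193 in neurons alone and 953 after co-culture, 1.25-fold lower. Rab6a, the form found in all cells, had 2250.4 and 2110.1, 1.07-fold lower, and its second probe set had 710 and 595, 1.19-fold lower. The log2 ratios of Rab6b and of the brightest Rab6a probe set (-0.32 and -0.09) differed by 0.23, less than the SD of the difference (0.35). Rab33b, a Golgi GTPase with a part in autophagy, had 298 and 265. Rab2b had 701 and 705 on its brightest probe set and 534 and 409 on its other one, and these lie on either side of no difference. The log2 ratio of the other one, -0.39, was lower than that of Rab6b. The sign of 4 of these genes (Rab1a, Rab2a, Rab2b and Rab18) depended on how the arrays were scaled.

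On early endosomes, Rab20 was the exception among 6 members. It had 107 in neurons alone and 242 after co-culture, a log2 ratio of 1.18. That was 3.50 times the SD of a single probe set in the dimmest brightness group. This was the 15th highest ratio of 6368. Rab20 has 1 probe set and passed the filter on the co-culture array only, so it too could only enter with a high value on that array. The 3 Rab5 genes, which organise fusion of early endosomes, were close between arrays. Rab5a had 392 and 422, Rab5b had 823 and 762, and Rab5c had 1039 and 948. Rab22a, which acts in endosome recycling, had 434 and 462, a ratio whose sign turned under scaling to the spiked controls.

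Rab31, a GTPase of the trans-Golgi network and endosomes, was read differently by its 2 probe sets. The brighter had 1755 in neurons alone and 1834 after co-culture, a log2 ratio of 0.06 that turned negative under scaling to the spiked controls. The dimmer had 359 and 130.5, 2.75-fold lower, and passed the filter only on the array of neurons alone, where it is high. The gap between the 2 ratios was 1.52, or 3.79 times the spread between probe sets of a gene. The mean over both was -0.70. The place of each probe set in the transcript was not analysed here.

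Recycling and Golgi-to-surface GTPases held the widest range among the members that differed by less than 2-fold. Of 12 above the filter, 8 were lower and 4 higher, beside 52.7% of all genes lower. Under median scaling 5 were lower and 7 higher, beside 38.7% of all genes lower. Log2 ratios in the group ran from -0.63 to 0.47. It was also the largest group, and the upper end is a Rab14 probe set with which the gene's other probe sets disagreed. Rab11b, a recycling endosome GTPase abundant in brain, had 1306 in neurons alone and 842 after co-culture, 1.55-fold lower. Its other probe set had 733 and 587, 1.25-fold lower, so both pointed the same way. Its relative Rab11a, present in all cells, had 1843 and 1790.3, 1.03-fold lower, and its second probe set was 1.03-fold lower too. The ratios of Rab11b and Rab11a differed by 0.59, more than the SD of the difference (0.35).

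Rab15, a brain GTPase of recycling endosomes, was lower on both of its probe sets. The brighter had 332 and 241, 1.38-fold lower, and the other 265 and 149, 1.78-fold lower. The second of these passed the filter only on the array of neurons alone, where it is high. Rab8a, which brings vesicles to the plasma membrane and into neurites, had 999 and 825, 1.21-fold lower, whereas Rab8b had 231 and 242. Rab10, which feeds membrane to growing axons, had 1539 and 1491, and its second probe set had 819 and 799.7. The rapid recycling GTPases Rab4a (326 and 306) and Rab4b (298 and 273) and Rab35 (263 and 249), which acts in endocytic recycling, all differed by less than 1.2-fold. Scaling decided the sign for Rab8b, Rab10, Rab11a and Rab35.

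The 4 higher members of this group included Rab14, whose probe sets disagreed. The brightest had 1369 in neurons alone and 1902 after co-culture, 1.39-fold higher. The other 3 were lower, with 1139.9 and 935, 479 and 433, and 203 and 192. Rab14 shuttles cargo between Golgi and endosomes, and the mean of its 4 log2 ratios was -0.01. Rab12, an endosome GTPase, had 743 and 884, 1.19-fold higher, and its second probe set was 1.13-fold higher. Rab13, known from epithelial junctions and neurite outgrowth, had 264 and 333, 1.26-fold higher. Rab25, an epithelial relative of Rab11, was dim (86.4 and 93.0) and is named after its values were seen.

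Late endosomal and lysosomal GTPases went both ways. Rab7a, which drives the maturation of late endosomes, had 1445 and 1391, and its second probe set had 727 and 708, 1.04-fold and 1.03-fold lower. Rab38, a GTPase of melanosomes and other lysosome-related organelles, had 289.6 in neurons alone and 406 after co-culture, 1.40-fold higher. Rab9a, which returns receptors from late endosomes to the Golgi, had 277 and 328, 1.19-fold higher. Rab34 had 991 and 1084 on the brighter and 299 and 267 on the dimmer probe set, again on either side of no difference. Rab24 (382 and 346) and Rab29 (415 and 394) were lower by 1.10-fold and 1.05-fold, and the sign of Rab7a and Rab29 turned under median scaling. Rab39a had 2.84 and 1.98, under the floor of 39.6 on both arrays, so it has no ratio, and it is named after its values were seen.

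Members outside these routes were Rab28, a GTPase of cilia, with 680.3 and 609, and Rab40c, part of a ubiquitin ligase, with 159 and 187. Rab40c was the member nearest above the filter, at 1.07 times the array median on its brighter array. Just below it were Rab3c at 0.86 times and Rab23, a ciliary GTPase of hedgehog signalling, at 0.83 times. Rab23 had 154 and 119.7, 1.28-fold lower, and is named after its values were seen.

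**Figure D3:**
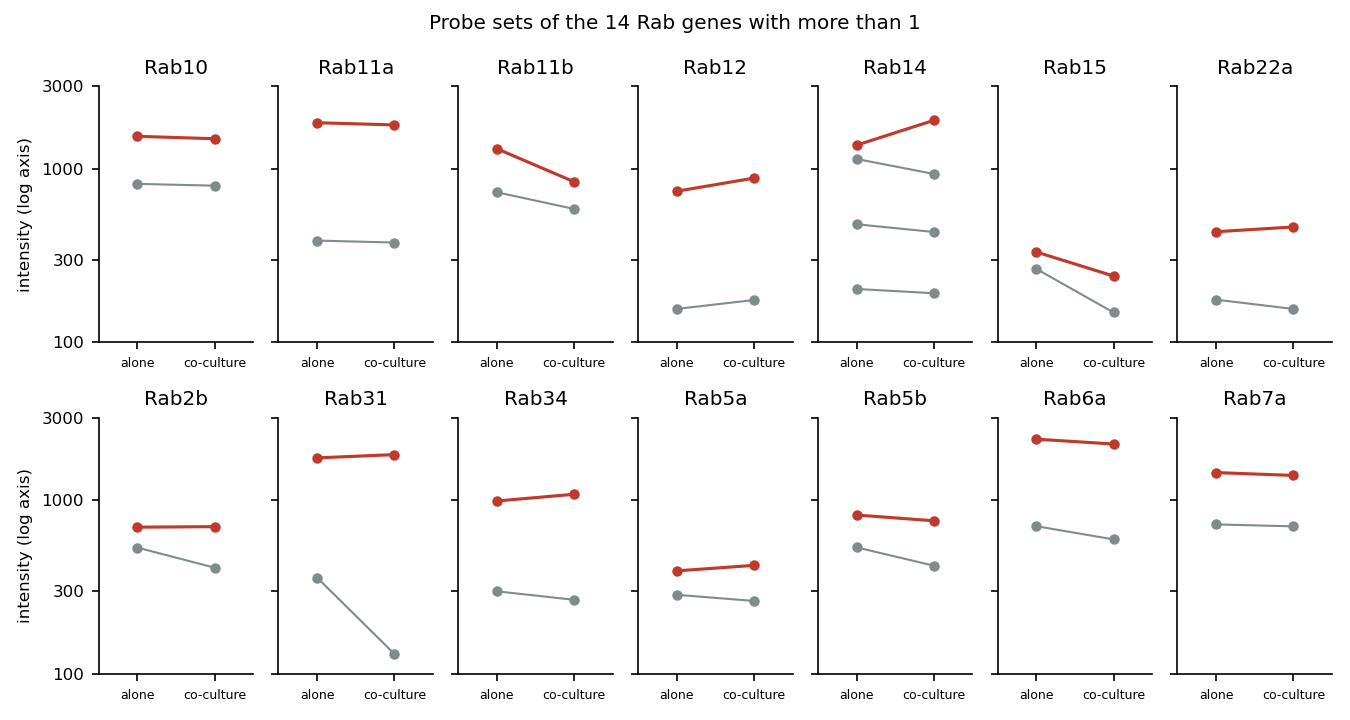
Intensity (y axis, log scale) in both groups (x axis) for every probe set of the 14 Rab genes with more than 1, with the brightest in red and the others in grey. The lines of Rab11b and Rab15 descend together, those of Rab12 ascend together, and those of Rab14 and Rab31 part.

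Of the 14 members with several probe sets, 8 had the same sign on all of them and 6 did not. The 6 were Rab2b, Rab5a, Rab14, Rab22a, Rab31 and Rab34. In each of them the brightest probe set had the higher ratio and every other one was negative. How often signs differ among all genes with several probe sets was not computed. Of 52 Rab probe sets above the filter, 3 were past 2-fold, and the share over all probe sets was not computed. They belonged to Rab3a, Rab20 and Rab31, and none of these genes had a second probe set past 2-fold. Each of the 3 probe sets passed the filter only on the array where it is high. A further 2 probe sets carry the symbols of both Rab1a and Rab1b and were not used. Whether probe sets of near-identical relatives also bind each other's transcripts was not tested.

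Paralogs, taken as genes that share a number, were about as close in ratio as other pairs of Rab genes. With both members above the filter there were 12 pairs, and the log2 ratios of 9 of them (75%) differed by less than 1 SD of the difference expected from single probe sets, beside 70.5% of the 654 pairs of members with different numbers. Several of the 12 share a gene. The exceptions were the pairs of Rab3a with Rab3b and with Rab3d, and the pair Rab11a and Rab11b.

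As a family the Rab genes lay close to all genes. Of the 37 above the filter, 23 were lower and 14 higher in neurons from co-culture, or 62.2% lower, beside 52.7% of all genes. Median scaling gave 16 lower (43.2%, against 38.7% of all genes) and scaling to the spiked controls gave 28 (75.7% against 67.4%). With each gene's mean over its probe sets in place of the brightest, 29 were lower (78.4%, against 54.7%). The median log2 ratio was -0.07, which became 0.02 under median scaling, and that of all genes was -0.01. The Rab median minus the median of all genes was -0.05. Scaling by the median, the trimmed mean or the spiked controls multiplies each array by a constant and leaves this difference as it was by construction. It was -0.07 after quantile normalization and after lowess correction. The SD of the log2 ratio over members was 0.43, against 0.30 over all genes. Without Rab3a and Rab20, removed after seeing the data, it was 0.23. Removing the most extreme members lowers the SD by construction, so this value cannot be set against that of all genes. For the 21 members at or above the 75th percentile of intensity on at least 1 array, log2 ratios ran from -0.63 to 0.47. Of these, 76.2% differed by less than 1.2-fold, beside 76.6% of the 3401 such genes in all.

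The genes that operate the Rab cycle were described from a list of 105, of which 69 were measured and 47 passed the filter. There were 28 lower and 19 higher (59.6% lower, beside 52.7% of all genes). Under median scaling 22 were lower and 25 higher, beside 38.7% of all genes lower. The median log2 ratio of the list was -0.08, or 0.01 under median scaling. Past 2-fold were 0 of the 47, beside 0.942% of all genes. Of the recyclers, Gdi2, a GDP dissociation inhibitor found in all cells, had 3123 and 3430, 1.10-fold higher, while Rabac1, which releases Rab proteins from GDI, had 1379.9 and 1106, 1.25-fold lower.

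Genes of this list that act on or bind Rab3 proteins, or are relatives of such genes, had ratios of either sign, or lay below the filter. Madd, the exchange factor of Rab3 proteins, had 574 in neurons alone and 369.9 after co-culture, 1.55-fold lower. Rims3, an active zone protein related to Rims1 and Rims2 and not counted here as a Rab3 binder, had 207 and 129.6, 1.60-fold lower. It passed the filter only on the array of neurons alone, where it is high. Rims1 (83.6 and 57.1), Rims2 (44.9 and 14.6) and the Rab3 effector Rph3a, or rabphilin (18.5 and 36.5), were below the filter. Rab3gap2, a subunit of the GTPase activator of Rab3, went the other way with 417 and 505, 1.21-fold higher. The Rab3-binding proteins Rab3ip (95.6 and 75.2), Rab3il1 (49.3 and 41.7) and Rph3al (152 and 129) were below the filter. Rab3gap2 and these last genes are named after their values were seen.

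The lowest ratios among the regulators belonged to Tbc1d9b, a GTPase activator (541 and 276, 1.96-fold lower), and Appl2, an effector of Rab5 on endosomes (426 and 255, 1.67-fold lower), followed by Rims3, whose entry was limited as stated above. The highest were those of Tbc1d1, a GTPase activator of glucose transporter traffic (703 and 917, 1.30-fold higher), the dynein adaptor Bicd2, an effector of Rab6 (569 and 735, 1.29-fold higher), and Plin3, which binds Rab9 (614 and 784, 1.28-fold higher).

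**Figure D4:**
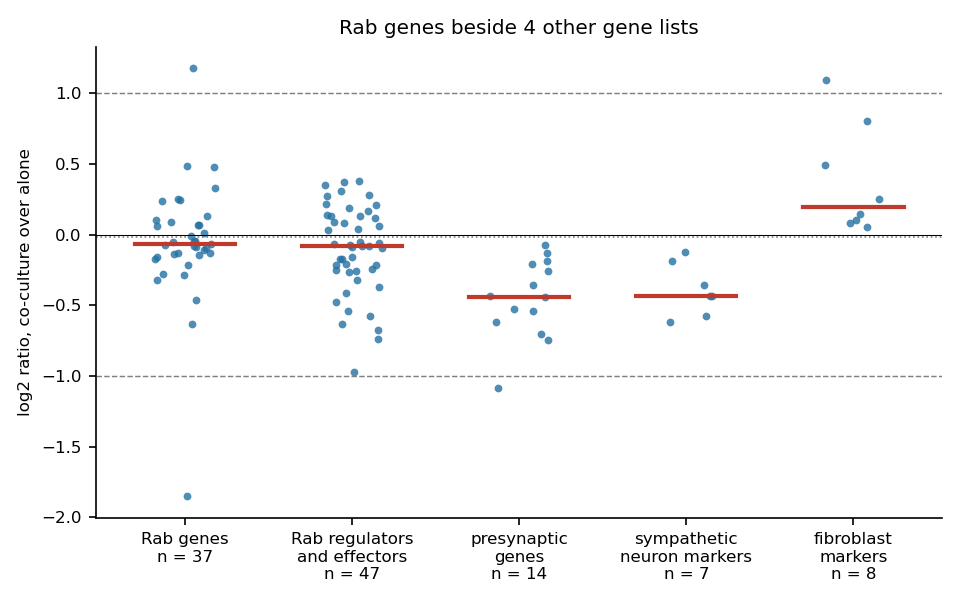
Log2 ratio, co-culture over alone (y axis), for the genes above the filter in 5 lists, 1 point per gene, with the median of each list as a red bar, the median of all genes as a dotted line and 2-fold as dashed lines. Medians were -0.07 for Rab genes (0.02 under median scaling), -0.08 for regulators (0.01 under median scaling), -0.44 for presynaptic genes, -0.43 for neuron markers and 0.20 for fibroblast markers, and the last 3 kept their sign under the 5 scalings.

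Presynaptic genes, which include the vesicle fusion machinery with which Rab3a works, were lower as a list. All 14 presynaptic genes above the filter, of 16 measured, were lower in neurons from co-culture, beside 52.7% of all genes, or 13 of them under median scaling, when Nsf, named after its values were seen, turned. Their median log2 ratio was -0.44, against -0.01 for all genes and -0.43 for the 7 sympathetic neuron markers, all of them lower too. Snap25 is on both lists, and a difference between the lists was not tested. Snap25, a SNARE protein of the plasma membrane, had 1778 and 1159, and Vamp2, its partner on the vesicle, had 1009 and 602. Syt9, a calcium sensor named after its values were seen, had 279 and 131 and, like Rab3a, passed the filter only on the array of neurons alone. With the filter at the median on both arrays, which leaves it out, the median over the other 13 genes was -0.44.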

How the data were processed

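Both samples were hybridised to 1-colour oligonucleotide arrays. Each probe set has 1 deposited intensity per array, not log-transformed. Per the series' design text the authors quantified them with dChip 1.3, and the submitters' processing notes name MAS5. Which of these made the values, and how the arrays were scaled, is not given in the sources used here. No count or depth applies, and 1 array per group limits the precision.

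The intensities were used as deposited. Of 15923 probe sets, 57 controls were left out, and 12783 of the other 15866 had 1 symbol, 312 several and 2771 none. Values under the pooled 20th percentile (39.6) were set to it before the log2 ratio was taken. The SD of 1 probe set's ratio came from the 749 genes with at least 2 probe sets above the filter (0.28 in all). It was taken as 1 value for each of 4 brightness groups (0.25 to 0.34). The functions were tested on simulated data with known fold changes, all past 2-fold and placed in probe sets above the array median. The simulated noise was smaller than the spread between probe sets. The simulation therefore does not cover dim genes or ratios near 2-fold. Python 3.11.15, pandas 2.3.3 and statsmodels 0.14.6 were used. Promoters came from RefSeq (GRCr8).

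Every Rab gene above the filter could be named. Below it, those of the secretory group or with a paralog above it were named, as were the 3 highest and 3 lowest regulators, Gdi2, Rabac1, Rph3a, Rims1, Rims2 and Madd, and Snap25, Syt1 and Vamp2. Syt1 was not analysed here, and 1 further item of the rule is not reported here. Any other gene is said to be named after its values were seen. The members, lists and alternatives were chosen with earlier results of these data known. The alternatives changed scaling (5), floor (3), filter (3), probe set (2) and symbols (1), and leaving out Rab3a and Rab20 was added after seeing the data.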

Additional observations from a re-analysis of the deposited data

How the results depend on the processing

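Rab3a has 1 probe set, so of the 14 alternatives only the 5 scalings, the higher floor and the pseudocount could move its log2 ratio. It stayed lower under these, from -1.94 to -1.52. The count of Rab genes past 2-fold was 1 with a pseudocount in place of the floor, when Rab20 dropped out. It was 0 with the filter at the median on both arrays, which removes Rab3a, Rab20 and Rab40c by construction. The shares of all genes past 2-fold under these settings are not given here. The Rab median log2 ratio of -0.07 was 0.02 when the array medians were equated and -0.16 when the spiked controls were. The median of the regulators was 0.0054 and -0.18 under these scalings. The regulators' median was -0.16 with a filter at the 25th percentile and -0.15 without one, both of which add dim genes. The secretory members' difference from the other Rab genes, -0.24, was -0.099 and -0.10 with these filters and -0.15 with the filter on both arrays. Taking the mean over probe sets gave 29 lower Rab genes instead of 23, beside 54.7% instead of 52.7% of all genes. It moved Rab14 from 0.47 to -0.01 and Rab31 from 0.06 to -0.70. Signs changed for 7 Rab genes under median scaling, 5 under scaling to the spiked controls, 2 after quantile normalization, 1 after lowess correction and 1 under the trimmed mean. Leaving out Rab3a and Rab20, chosen after seeing the data, left a median of -0.07 with 22 of 35 lower, beside 52.7% of all genes. No paired analysis was possible because each group has 1 array. Dim genes are limited by their signal over background, which the deposited values do not give.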
